A study of Mus musculus with 56 samples.

Results

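The genes described here are 9 regulators of the multiciliated cell, Gmnc, Mcidas, Trp73, Myb, Ccno, Deup1, Foxj1, Rfx2 and Rfx3, among the 53379 genes of the count table. They were chosen by name, as genes known to drive the formation of cells with many motile cilia. All 9 were found by gene identifier, and all 9 passed the filter on low counts in the comparison of testis with efferent ductules. The study sequenced total RNA from 7 regions of the male reproductive tract of C57BL/6 mice aged 3 months or 21 months, with no treatment and no altered allele in either age. The regions were the testis, the efferent ductules (the tubules that carry sperm from testis to epididymis), the initial segment, the caput, corpus and cauda epididymis, and the vas deferens. Each region at each age had 4 libraries, 56 in all, and by the study's methods the 7 regions of an age came from the same 4 mice. A p-value here sets a difference against the spread between libraries, which were treated as independent, with the regions of a mouse not paired. Tests between regions pooled the spread over the 28 libraries of an age.

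Multiciliated cells line the efferent ductules, where their cilia stir the fluid that carries sperm, while the testis builds another motile axoneme, the sperm flagellum, 1 to a cell. In a cell that becomes multiciliated, the coiled-coil proteins Gmnc and Mcidas bind E2F4 or E2F5 and switch on the programme. The transcription factors Trp73 and Myb act beneath them, Ccno and Deup1 serve the mass production of centrioles, and Foxj1, Rfx2 and Rfx3 switch on the genes of the cilium itself. Because each library is a whole piece of tissue, a lower level from fewer multiciliated cells and a lower level from less RNA in each of them cannot be told apart.

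Promoter sequences are shown for 4 of the genes, as examples. Ccno and Mcidas are neighbours on chromosome 13, both with their highest mean in the caput. Rfx2 and Gmnc each hold a match to a motif of a factor family on the list, RFX or MYB. On GRCm38, Ccno lies on the plus strand of chromosome 13 from 112987802 to 112990777, Mcidas on the same strand from 112993845 to 113000394, and Cdc20b, another gene of the multiciliated programme, from 113035111 to 113091195. Rfx2 lies on the minus strand of chromosome 17 from 56775897 to 56831013 and Gmnc on the minus strand of chromosome 16 from 26913553 to 26991652. The sequences are the 250 bases before the start of transcription in RefSeq on GRCm38.p6, written 5′ to 3′ along the gene's strand. Capitals mark GTTGCC, a half-site of the X-box bound by RFX proteins, in the first 3 sequences, and CAACTG, a MYB motif, in the last.
Ccno, chr13:112987552-112987801, plus strand: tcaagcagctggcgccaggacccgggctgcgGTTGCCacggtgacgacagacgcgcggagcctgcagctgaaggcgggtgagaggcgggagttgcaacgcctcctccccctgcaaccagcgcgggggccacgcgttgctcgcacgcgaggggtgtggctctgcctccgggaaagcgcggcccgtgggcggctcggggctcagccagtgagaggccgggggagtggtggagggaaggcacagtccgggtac
Mcidas, chr13:112993618-112993867, plus strand: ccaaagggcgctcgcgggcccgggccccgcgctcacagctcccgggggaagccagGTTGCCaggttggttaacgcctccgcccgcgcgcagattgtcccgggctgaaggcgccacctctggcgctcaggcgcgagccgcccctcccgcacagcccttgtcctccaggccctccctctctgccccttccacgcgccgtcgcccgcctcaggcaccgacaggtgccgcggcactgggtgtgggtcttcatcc
Rfx2, chr17:56831009-56831258, minus strand: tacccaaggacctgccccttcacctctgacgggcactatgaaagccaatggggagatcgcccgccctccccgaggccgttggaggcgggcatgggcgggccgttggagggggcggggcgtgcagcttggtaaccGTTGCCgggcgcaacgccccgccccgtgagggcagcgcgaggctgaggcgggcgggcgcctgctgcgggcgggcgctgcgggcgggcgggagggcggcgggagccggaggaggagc
Gmnc, chr16:26991653-26991902, minus strand: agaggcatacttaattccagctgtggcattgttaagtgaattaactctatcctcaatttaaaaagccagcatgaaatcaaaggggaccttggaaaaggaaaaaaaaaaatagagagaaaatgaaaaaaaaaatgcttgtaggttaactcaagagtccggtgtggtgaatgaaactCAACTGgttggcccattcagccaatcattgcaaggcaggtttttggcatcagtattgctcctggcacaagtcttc

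In Ccno the GTTGCC lay 219 bases before the start, in Mcidas 195 and in Rfx2 116, and in Gmnc the CAACTG lay 75 bases before it. The RefSeq table held 11 promoters for 8 of the 9 genes, all but Foxj1. It held 2 promoters of Gmnc, and the other had no match to the motifs searched. Searched on both strands, GTTGCC occurred in 4 of these 11, those of Mcidas, Ccno, Deup1 and Rfx2, and in 3424 of all 32841 promoters of that length (10.4%). CAACTG or TAACGG occurred in 2 of 11, Gmnc and Deup1, and in 13.1% of all promoters. The forkhead motif TGTTTAC or TGTTTGT occurred in 1 of 11, that of Trp73, and in 8.74% of all promoters. TTTCCCGC or TTTGGCGC, the motif of E2F proteins, occurred in 0 of 11 and in 1.30% of all promoters. GGCAAC, the reverse complement of GTTGCC, can share bases with CAACTG. These matches describe letters only, and no binding was measured.

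The libraries held between 11125279 and 20561967 counts, with a median of 16384049. Levels are given as CPM, a count scaled to the library's total, after TMM scaling over the 56 libraries, and levels of different genes are compared only per kilobase of exon. The predicted gene Gm42418, which overlaps a ribosomal RNA locus, took between 1.27% and 49.7% of the counts of a library, the most in replicate 2 of the caput at 3 months. In the efferent ductules it took 1.27% to 3.29% at 3 months and 4.93% to 22.2% at 21 months, where replicates 1 and 4 also had the 2 lowest totals of the series (11442133 and 11125279), so results of that group are also given without those libraries. The labels of testis and efferent ductules were met by the defining markers: all 12 spermatid and all 11 spermatocyte markers were higher in testis at 3 months, and 6 of 8 markers of the non-ciliated cells of the efferent ductules, Pax8, Aqp1 and Lrp2 among them, were higher there. No such markers of the other regions were examined.

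More of the regulators were called higher in the efferent ductules than in testis. At 3 months 5 of the 9 regulators (Gmnc, Mcidas, Trp73, Myb and Foxj1) were at least 4-fold higher in the efferent ductules and 2 (Deup1 and Rfx2) at least 4-fold higher in testis, at an adjusted p under 0.05. Over all 34475 genes tested, 19.9% passed the same rule in the direction of the efferent ductules and 29.0% in that of the testis. Ccno was higher in the efferent ductules by 3.19-fold, under the 4-fold threshold, and Rfx3 did not pass the test. With no fold threshold 8 of 9 passed, against 75.6% of all genes. The median log2 difference, testis minus efferent ductules, was -2.74 over the 9 and 0.08 over all genes. At 21 months the same counts were found, 5 and 2, against 20.1% and 28.9% of all genes, and the 5 became 4, without Mcidas, in several other fits.

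**Figure D1:**
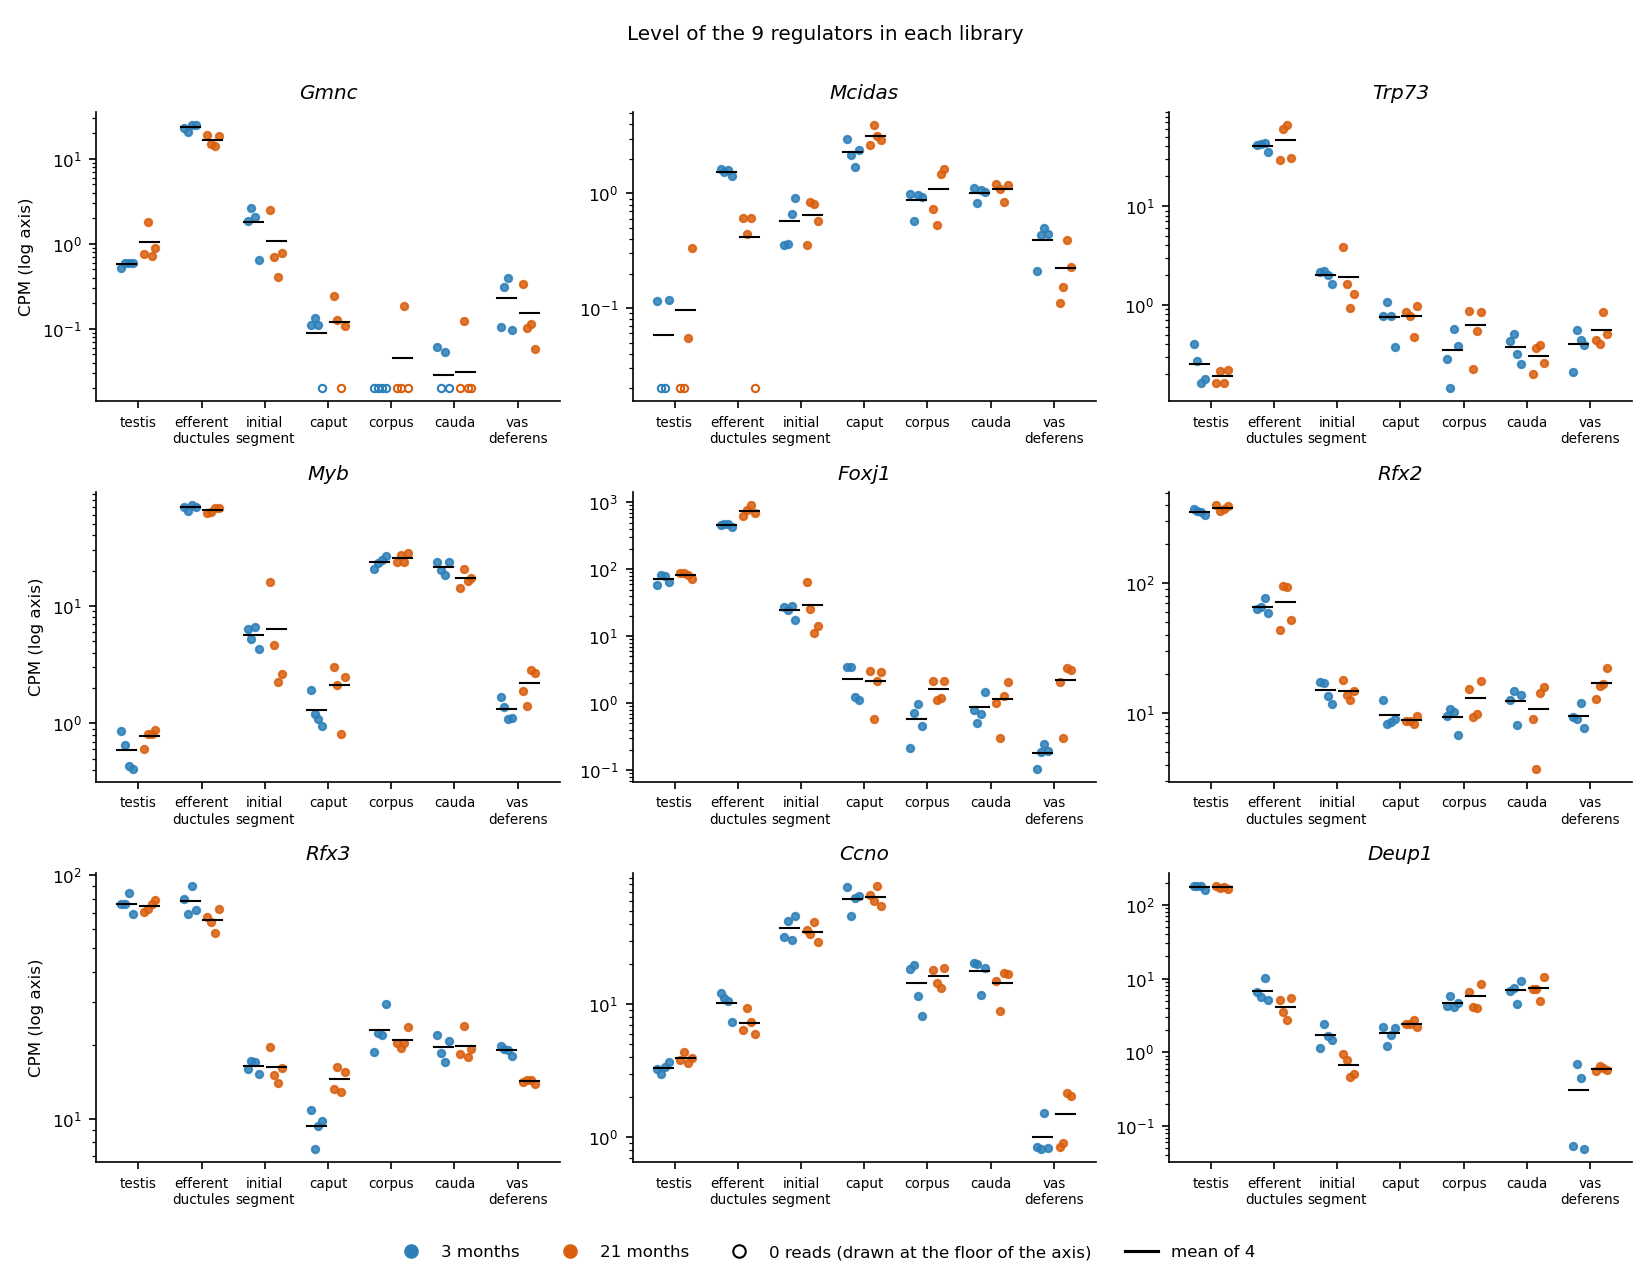
Each panel plots 1 regulator in CPM on a log axis, by region, with a point for each library, blue at 3 months and orange at 21 months, a black line at the mean of 4, and open circles for libraries with 0 reads. Gmnc, Trp73 and Foxj1 peak in the efferent ductules, Deup1 and Rfx2 in testis and Ccno in the caput.

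Gmnc, the geminin relative at the head of the pathway, read 23.3, 20.7, 25.2 and 25.1 CPM in the 4 efferent ductule libraries of 3 months and 0.515, 0.598, 0.600 and 0.588 CPM in the 4 of testis. The groups did not overlap, at either age, and the testis values rested on 9 to 11 reads a library. The fitted log2 difference was -5.38 (SE 0.32, adjusted p = 1.38e-14), or 41.8-fold. The next region was the initial segment, at 1.79 ± 0.83 CPM (SD, n = 4), and below it came testis. The other 4 regions averaged at most 0.228 CPM, and in the corpus all 4 libraries of 3 months had 0 reads. At 21 months the log2 difference between testis and efferent ductules was -4.14 (SE 0.41, adjusted p = 2.28e-10).

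Mcidas, the multicilin that acts with E2F4 and E2F5, was the lowest of the 9 in the efferent ductules per kilobase, at 0.650 CPM per kilobase at 3 months. Its 3-month libraries there read 1.64, 1.53, 1.59 and 1.42 CPM (28 to 31 reads each), and testis read 0.115, 0, 0 and 0.118 CPM (at most 2 reads). All 4 efferent ductule libraries were above all 4 of testis, and the log2 difference was -4.65 (SE 0.48, adjusted p = 4.99e-10). At 21 months the groups overlapped, because replicate 4 of the efferent ductules had 0 reads and replicate 4 of testis had 6. The log2 difference was then -2.24 (SE 0.72, adjusted p = 0.00673), and it came to -4.21 without testis replicate 4. Without testis replicate 1, 2 or 3 it was -1.85, -1.85 or -1.91, under the 4-fold threshold. It was also under 4-fold with DESeq2's size factors (-1.83), in DESeq2 (-1.89) and with edgeR's own expression filter (-1.97), and it missed an adjusted p of 0.05 with the 8 libraries of the 2 organs alone (-2.11, adjusted p = 0.0626). The efferent ductules were not its highest region. The caput read 2.99, 2.14, 1.70 and 2.39 CPM at 3 months, all above the efferent ductules, although the test between those 2 regions gave an adjusted p of 0.0520. At 21 months the caput, at 3.18 ± 0.58 CPM (SD, n = 4), stood above the corpus by 1.58 on the log2 scale (SE 0.42, adjusted p = 0.00399).

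Trp73, a p53 relative that acts upstream of Foxj1, had the fitted log2 difference farthest from 0 of the 9. The efferent ductules read 41.0, 42.6, 43.8 and 34.8 CPM at 3 months and the testis 0.401, 0.272, 0.164 and 0.176 CPM, with no overlap, and the testis values rested on 3 to 7 reads a library. Over all genes 79.1% had libraries of the 2 organs that did not overlap at 3 months, and 75.5% at 21 months. The log2 difference was -7.33 (SE 0.27, adjusted p = 3.16e-20), or 161-fold. Its antisense partner Trp73os covers 5.06% of its exon bases, and whether the counting used strand is not given in the sources used here.

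Myb, a transcription factor of the early multiciliated programme, read 69.9, 64.9, 72.4 and 69.7 CPM in the efferent ductules at 3 months. In testis it read 0.859, 0.652, 0.436 and 0.412 CPM, on 7 to 15 reads a library. The log2 difference was -6.91 (SE 0.21, adjusted p = 3.93e-22), or 120-fold, and here too no libraries overlapped. Beyond the initial segment Myb was higher again in the corpus and cauda. The corpus averaged 23.9 ± 2.56 CPM and the cauda 21.6 ± 2.67 CPM (SD, n = 4 each), values whose difference did not pass the test (adjusted p = 0.346), while the caput between initial segment and corpus averaged 1.30 ± 0.44 CPM and the vas deferens 1.32 ± 0.28 CPM. Of the 11 multiciliated markers 4 (Tmem212, Ccdc153, Cdhr3 and Sntn) were at 0 in all 4 corpus libraries of 3 months and 7 had reads. The 11 summed to 15.2 to 20.4 CPM in the corpus, against 755 to 919 CPM in the efferent ductules. An antisense gene, Gm26577, covers 6.26% of the exon bases of Myb.

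Ccno, a cyclin-like protein needed for centriole production, was highest in the caput. There it read 75.8, 45.9, 63.3 and 65.2 CPM at 3 months, against 12.1, 11.1, 10.5 and 7.40 CPM in the efferent ductules and 3.26, 2.99, 3.38 and 3.70 CPM in testis. These 3 regions did not overlap, and the lowest caput value, 45.9 CPM, came from the library with 49.7% of its counts on Gm42418. The log2 difference of testis from efferent ductules was -1.67 (SE 0.24, adjusted p = 2.72e-07). The order at 3 months ran from caput through initial segment (37.7 CPM), cauda (17.8 CPM), corpus (14.4 CPM), efferent ductules and testis to vas deferens (1.005 CPM). Of these 6 steps, cauda to corpus alone missed an adjusted p of 0.05 (0.515). The caput also had the highest mean of its neighbour Mcidas, and per kilobase the caput held 24.5 CPM of Ccno at 3 months.

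Deup1, which builds the deuterosome, the platform on which many centrioles form at once, was highest in testis. The testis libraries of 3 months read 179, 180, 181 and 156 CPM and those of the efferent ductules 6.47, 5.54, 10.3 and 5.12 CPM. The log2 difference was 4.64 (SE 0.23, adjusted p = 2.32e-17), or 24.9-fold higher in testis, with no overlap. Replicate 3 of the efferent ductules, the highest for Deup1, also had the highest sum of the 12 spermatid markers, 243 CPM against 52.3 to 57.5 CPM in the other 3 libraries, and the part of these transcripts in the Deup1 value was not tested. Cauda (7.02 CPM), efferent ductules and corpus (4.70 CPM) followed testis, and neighbours among these 3 did not differ by the test (adjusted p = 0.996 and 0.0915).

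Foxj1, the forkhead factor that switches on motile cilia genes, was the most abundant regulator of the efferent ductules per kilobase, at 176 CPM per kilobase at 3 months, followed by Rfx2 at 9.01 CPM per kilobase. The efferent ductules read 463, 482, 469 and 430 CPM and the testis 57.9, 81.4, 80.9 and 65.7 CPM. The groups did not overlap, and the log2 difference was -2.74 (SE 0.21, adjusted p = 6.57e-13), or 6.68-fold. The initial segment came after testis at 24.6 ± 5.04 CPM, and the 4 regions beyond it averaged at most 2.33 CPM. In testis, Foxj1 ranked after Deup1 and Rfx2 per kilobase (27.3, 52.6 and 48.8 CPM per kilobase).

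Rfx2, an RFX factor that is also required for spermatids to mature, read 377, 358, 355 and 339 CPM in testis and 63.0, 65.3, 76.4 and 58.9 CPM in the efferent ductules at 3 months. The log2 difference was 2.39 (SE 0.15, adjusted p = 3.08e-15), or 5.25-fold higher in testis, and the groups did not overlap. At 21 months it was 2.26 (SE 0.27, adjusted p = 7.25e-09), and 1.88, just under 4-fold, without replicates 1 and 4 of the efferent ductules. Rfx3, an RFX factor of cilia in many tissues, had nearly the same mean in both organs, at 75.7, 75.8, 84.3 and 69.3 CPM in testis and 79.8, 69.3, 90.3 and 72.1 CPM in the efferent ductules. Its libraries overlapped, and the log2 difference was -0.07 (SE 0.10, adjusted p = 0.525). Across the scalings tried it lay between -0.38 and 0.33, so its sign depended on the scaling.

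**Figure D2:**
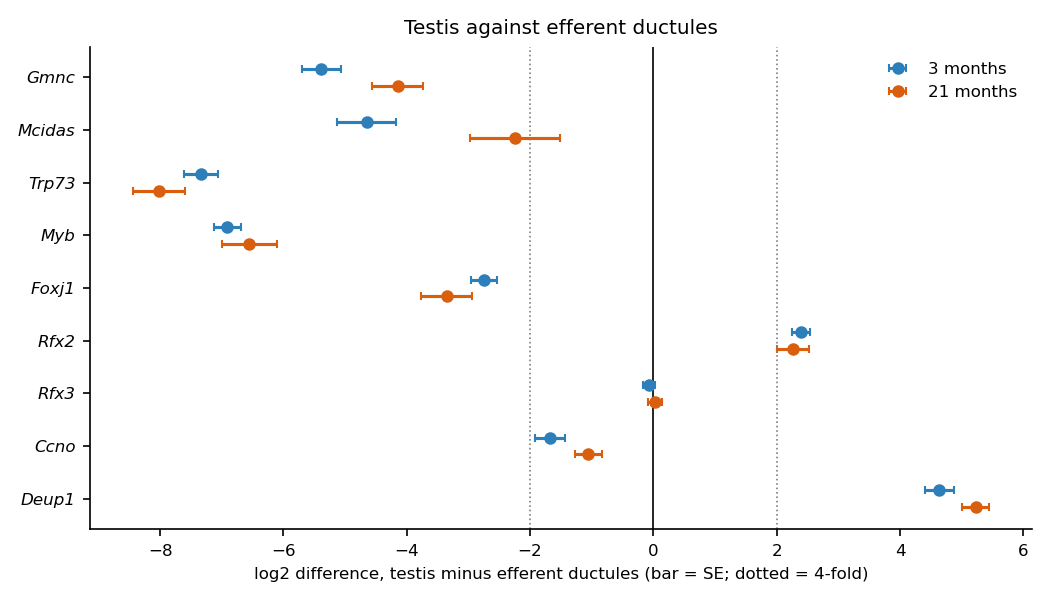
The log2 difference of each regulator, testis minus efferent ductules, is plotted on the horizontal axis with its standard error as a bar, at 3 months in blue and 21 months in orange, with dotted lines at 4-fold. Trp73 and Myb lie farthest towards the efferent ductules, at -7.33 and -6.91 at 3 months, and Deup1 farthest towards testis, at 4.64.

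Among the paralogs of the 9 genes, 5 of 14 were called higher in testis and 1 higher in the efferent ductules at 3 months, where 29.0% and 19.9% of all genes were. Rfx8 read 75.2 CPM in testis and 0.591 CPM in the efferent ductules (log2 difference 6.97), and Rfx4 differed by 7.11. Rfx6 read 2.98 CPM in testis with 0 reads in all 4 efferent ductule libraries. Foxj2 was higher in the efferent ductules (-2.44). Of 18 genes of centriole amplification and E2F partners, 9 were higher in testis and 0 in the efferent ductules, with a median log2 difference of 1.90. Fbxo43 (5.90), Plk1 (4.53) and Plk4 (4.39), the last being the kinase that starts centriole assembly, differed most. E2f4 and E2f5, the partners of Gmnc and Mcidas, differed by 0.00 and 0.15, with adjusted p = 0.998 and 0.374. Cdc20b, the neighbour of Mcidas, read 10.3 CPM in testis and 1.42 CPM in the efferent ductules.

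In the Notch pathway, whose signal holds back the multiciliated fate, 7 of 15 genes were higher in the efferent ductules and 2 in testis, where 19.9% and 29.0% of all genes were. Notch1 (-4.18), Dll1 (-3.57) and Heyl (-3.36) led in the first direction, and Dll3 (6.03) and Hes5 (4.66) in the second. The motile axoneme genes, which encode the moving core of cilium and flagellum, were split, with 9 of 26 higher in testis and 4 higher in the efferent ductules, shares near those of all genes. Spag17 (4.22), Tekt2 (3.61) and Zmynd10 (3.12) led towards testis, and Rsph4a (-7.45), Dnah11 (-6.80) and Dnah5 (-5.69) towards the efferent ductules. Of 11 multiciliated cell markers, 5 were higher in the efferent ductules, Cdhr3 (-12.03), Sntn (-10.83) and Tmem212 (-8.65) foremost, and 2 in testis, Mlf1 (4.27) and Pifo (2.07). Sertoli cell markers were higher in testis for 6 of 8 genes and higher in the efferent ductules for 1, and spermatogonia markers for 4 and 3 of 8. Markers of T and B cells were higher in testis for 2 of 13 and in the efferent ductules for 4, and basal epithelial markers for 1 and 2 of 3.

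Over all 21 pairs of regions, 102 of the 189 combinations of regulator and pair (54.0%) were called at 3 months, where 24.0% of all combinations of gene and pair were. At 21 months 99 (52.4%) were called, against 24.1%. For each regulator the genes with the most similar pattern were found by Pearson's r over the 14 group means of log2(CPM + 1), which come from the same libraries. These sets depended on the measure: of the 27 genes, 16 stayed with log2(CPM + 0.1) and 4 with Spearman's rank correlation, where none of those of Gmnc, Mcidas, Trp73, Deup1, Rfx2 or Rfx3 stayed. For Foxj1 they were Mapk15 (0.984), Odf3b (0.984) and Gm19935 (0.982), for Gmnc Proz (0.996) and 2010001K21Rik (0.993), and for Trp73 Ankrd65, Gm3294 and Acox2 (0.996 each). For Deup1 they were Dnah7a (0.995), Ankef1 (0.994) and 1700001O22Rik (0.991), for Rfx2 Hirip3 (0.994), Riiad1 (0.993) and Dnaaf2 (0.992), and for Rfx3 Ttc12 (0.973), Sspo (0.969) and Tshr (0.967). For the others they were, for Myb, Ihh (0.973), Rapgef3 (0.966) and Tgfbi (0.963), for Ccno Aldh1a7 (0.956), Zfp648 (0.953) and Gm11728 (0.945), and for Mcidas Suv39h1 (0.916), Dtwd2 (0.901) and Pisd (0.900).

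Foxj1 rose with age in the efferent ductules. Their libraries read 463, 482, 469 and 430 CPM at 3 months and 623, 773, 908 and 704 CPM at 21 months, and every old library was above every young one. The log2 difference, 21 minus 3 months, was 0.78 (SE 0.12, adjusted p = 0.00881), or 1.71-fold. Foxj1 was the 1 regulator of 9 called at an adjusted p under 0.05 and 1.5-fold, where 2.82% of all genes were called higher and 1.89% lower. Those counts over all genes, 732 higher and 490 lower, ranged from 182 to 871 and from 104 to 605 when 1 library was left out, and leaving out replicate 1, 2, 3 or 4 of 3 months each lowered both by over 1.5 times. The call was lost when libraries were scaled by total counts alone (0.44, adjusted p = 0.0643), a scaling that shifted the median of all genes from -0.04 to -0.38 and changed the calls over all genes to 346 higher and 3353 lower. It was also lost with all 56 libraries in 1 fit (0.71, adjusted p = 0.181).

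In the main fit, of the 8 efferent ductule libraries with TMM scaling and a total of at least 10 counts, none of the other 8 regulators was called. Mcidas read 1.64, 1.53, 1.59 and 1.42 CPM at 3 months and 0.614, 0.442, 0.614 and 0 CPM at 21 months, on 0 to 10 reads a library at the older age. The groups did not overlap, and the log2 difference of -1.76 (SE 0.51) had an adjusted p of 0.0629. It passed under DESeq2 (-1.75, adjusted p = 0.00259), under edgeR's own expression filter (adjusted p = 0.0451), with library size alone (-2.08, adjusted p = 0.0172), with all 56 libraries in 1 fit (-1.81, adjusted p = 0.00475) and without replicate 4 of 21 months, the library with 0 reads (-1.41, adjusted p = 0.0338). Gmnc read 19.2, 14.8, 14.1 and 18.6 CPM at 21 months, all under the 20.7 to 25.2 CPM of 3 months, with a difference of -0.42 (SE 0.15, adjusted p = 0.105). With library size alone, the scaling that put the median of all genes at -0.38, Gmnc (-0.77, adjusted p = 0.00470), Ccno (-0.74, adjusted p = 0.0362) and Deup1 (-0.99, adjusted p = 0.0218) were called lower as well. Over all genes, 17.4% had efferent ductule libraries that did not overlap between the ages.

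The remaining values at 21 months spread more widely. Trp73 read 28.9, 59.8, 66.4 and 30.6 CPM, and Rfx2 43.8, 94.98, 94.3 and 52.5 CPM, in both cases with replicates 1 and 4 below and replicates 2 and 3 above all libraries of 3 months. The differences were 0.26 (SE 0.23, adjusted p = 0.520) for Trp73 and 0.19 (SE 0.21, adjusted p = 0.623) for Rfx2. Myb, at 61.8, 63.9, 68.9 and 68.5 CPM, had a difference of 0.00 with an SE of 0.09 (adjusted p = 0.994). Deup1 (-0.62, SE 0.27, adjusted p = 0.174), Ccno (-0.42, SE 0.18, adjusted p = 0.188) and Rfx3 (-0.16, SE 0.11, adjusted p = 0.377) did not pass. At an unadjusted p under 0.05 and 1.5-fold, 3 of 9 regulators passed (Foxj1, Mcidas and Deup1), against 12.8% of all genes. Without replicates 1 and 4 of 21 months, 2 regulators were called higher, Foxj1 (0.90) and Trp73 (0.67), and 3 lower, Mcidas (-1.51), Gmnc (-0.67) and Deup1 (-1.08), where 6.56% of all genes were called higher and 6.00% lower.

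Set against Foxj1 within each library, a measure that no scaling of libraries alters, all 8 other regulators were lower at 21 months, with no overlap of libraries. The same held for 52.7% of all genes, since the rise of Foxj1 alone lowers every such ratio. For every 100 Foxj1 reads there were 5.13 Gmnc reads at 3 months and 2.298 at 21 months, and 0.335 and 0.0558 Mcidas reads. For Myb the ratio went from 15.05 to 8.88, for Rfx3 from 16.9 to 8.96, for Rfx2 from 14.3 to 9.29 and for Trp73 from 8.78 to 6.01. Ccno went from 2.22 to 0.975 and Deup1 from 1.48 to 0.583. All 8 ratios share Foxj1 as their denominator and were chosen after its values were seen, so they carry no test and follow in part from Foxj1, as for Myb, whose own difference was 0.00. Foxj1 itself went from 12.6 to 21.5 reads for every 100 reads of the 26 axoneme genes, and from 55.5 to 82.4 for every 100 reads of the 11 multiciliated markers. In the latter, replicates 1 and 4 of 21 months stood at 58.4 and 61.8, next to the highest library of 3 months at 57.6, and replicates 2 and 3 at 93.1 and 116.

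**Figure D3:**
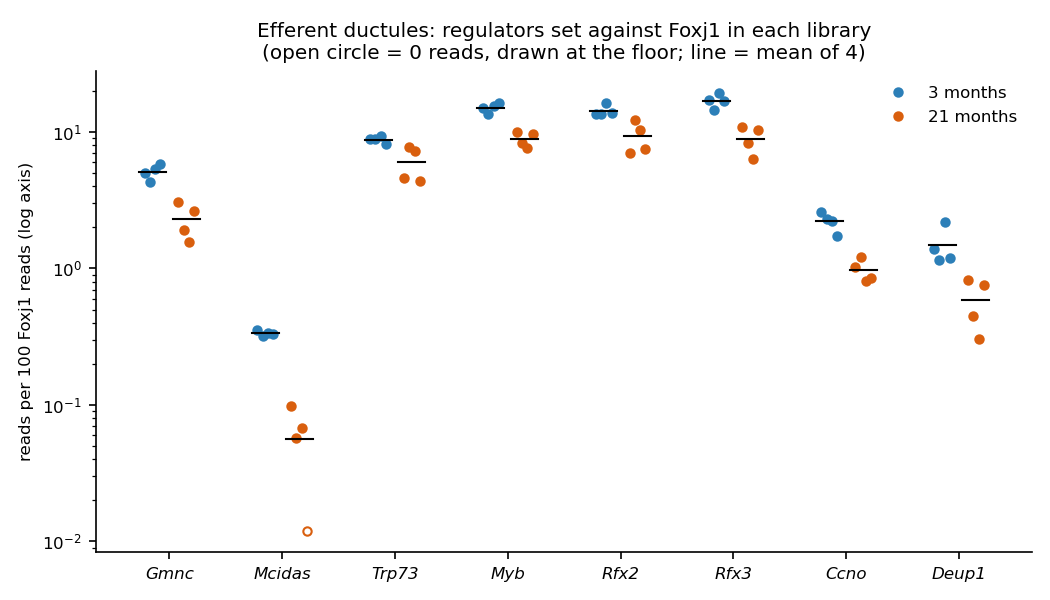
Reads of each of the 8 other regulators for every 100 Foxj1 reads in the efferent ductules are plotted on a log axis, with a point for each library, blue at 3 months and orange at 21 months, and a line at the mean of 4. The open circle at the floor of the axis is Mcidas in replicate 4 of 21 months, with 0 reads. In each regulator the orange points lie under the blue ones, as for 52.7% of all genes set against Foxj1, which itself was 1.71-fold higher at 21 months.

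The other lists were read against the 2.82% of all genes called higher and the 1.89% called lower with age in the efferent ductules. Of the 26 axoneme genes 1 was called higher, Zmynd10 (0.64, adjusted p = 0.0293), and of the 11 multiciliated markers 0 were called, 0 at an unadjusted p. The summed multiciliated markers read 822, 838, 919 and 755 CPM at 3 months and 1066, 831, 780 and 1140 CPM at 21 months. Of the 18 centriole and E2F genes 3 were lower, Foxn4 (-2.61, adjusted p = 0.0420), Cdc20b (-1.59, adjusted p = 0.0183) and Stil (-1.43, adjusted p = 0.0105), and the median of that list was -0.27 beside -0.04 over all genes. Cdc20b went from 1.42 ± 0.28 to 0.450 ± 0.068 CPM (SD, n = 4 each), and Plk4 did not pass (-0.72, adjusted p = 0.0524). Of the paralogs 1 was lower, Mybl1 (-0.75, adjusted p = 0.0351), and in the Notch pathway 0 of 14 tested were called, 0 at an unadjusted p. T and B cell markers were higher for 7 of 13, with sums of 18.4 to 26.6 CPM at 3 months and 30.7 to 58.8 CPM at 21 months. Of the 3 basal markers Krt5 was higher (4.86, adjusted p = 0.0197), 2 were at an unadjusted p, and the median of the 3 was 4.49, with sums of at most 1.21 CPM at 3 months and of 0.614, 6.46, 5.46 and 1.18 CPM at 21 months. Replicates 2 and 3 of 21 months, the highest of these, were also the highest for Foxj1 (773 and 908 CPM). Amn of the non-ciliated markers was also higher, and the part of these cell types in the regulators' values was not tested.

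In testis 0 of 9 regulators were called with age, where 0.253% of all genes were. DESeq2 called 0, and 1 regulator, Gmnc, passed an unadjusted p under 0.05 and 1.5-fold, as did 2.71% of all genes. Its testis libraries read 0.515, 0.598, 0.600 and 0.588 CPM at 3 months and 0.765, 1.83, 0.708 and 0.882 CPM at 21 months. These values rested on 9 to 34 reads a library, and the log2 difference of 0.85 (SE 0.35) had an adjusted p of 0.361. Foxj1 differed by 0.20 and Deup1 by -0.02. No gene of the 12 lists was called with age in testis.

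The age changes of testis and efferent ductules were compared directly by their interaction, which was called for 2.17% of all genes. It was called for 1 regulator, Gmnc, whose change in testis was more positive by 1.36 on the log2 scale (SE 0.34, adjusted p = 0.0447), where the median over all genes was 0.14. The call was lost in 11 of 16 fits that left out 1 library, with values from 0.95 to 1.51, the lowest being without testis replicate 2 of 21 months, which held 1.83 CPM. It was also lost with DESeq2's size factors (1.24, adjusted p = 0.0683), without Gm42418 (1.29, adjusted p = 0.0566), with the replicate number as a block (1.36, adjusted p = 0.0830) and with all 56 libraries in 1 fit (1.36, adjusted p = 0.229). It held with library size alone (1.60, adjusted p = 0.00771), in DESeq2 (1.25, adjusted p = 0.0149) and with edgeR's own expression filter (1.35, adjusted p = 0.0385). For Foxj1 the interaction was -0.50 (SE 0.19, adjusted p = 0.162) and -0.61 under DESeq2 (adjusted p = 0.0134). Without efferent ductule replicates 1 and 4 of 21 months, the interaction was called for 4 regulators, Gmnc (1.56, adjusted p = 0.00486), Deup1 (1.11, adjusted p = 0.00718), Foxj1 (-0.66, adjusted p = 0.0129) and Rfx2 (-0.42, adjusted p = 0.0486), and for 9.82% of all genes.

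In the initial segment 1 library of 21 months stood apart for several regulators. Foxj1 read 27.2, 24.9, 28.8 and 17.4 CPM at 3 months and 64.1, 26.0, 11.3 and 14.4 CPM at 21 months. Replicate 1 stood above all other libraries, also for Myb (15.96 CPM against 2.27 to 4.66 CPM in the other 3 of that age), Trp73 (3.87 CPM) and the summed multiciliated markers (112 CPM against 24.1 to 50.9 CPM). The difference for Foxj1 was 0.37 (adjusted p = 0.689), and -0.34 without that replicate. Deup1 was called lower, the 1 regulator of 9, where 4.97% of all genes were called, from 1.14, 2.45, 1.68 and 1.48 CPM to 0.939, 0.776, 0.468 and 0.515 CPM. These values rested on 7 to 41 reads a library, and the difference was -1.17 (SE 0.33, adjusted p = 0.0495). The call was lost in 6 of 8 fits that left out 1 library, without 3-month replicate 2, 3 or 4 or 21-month replicate 2, 3 or 4 (adjusted p from 0.0640 to 0.153). It was also lost under DESeq2's size factors (0.0504), library size alone (0.0563), DESeq2 (0.0636), edgeR's own expression filter (0.0506) and the replicate block (0.0908), with differences from -1.16 to -1.17. Beside it, 9 of 12 spermatid and 3 of 11 spermatocyte markers were lower, and the summed spermatid markers went from 42.4 to 137 CPM down to 13.9 to 32.9 CPM, the part of which in the Deup1 value was not tested.

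In the vas deferens 2 of 9 regulators were called higher at 21 months, where 7.78% of all genes were, and 0 lower, where 3.22% were. At an unadjusted p and 1.5-fold 3 were higher and 0 lower, against 17.8% of all genes in either direction, and DESeq2 called 0 lower. Foxj1 read 0.106, 0.188, 0.247 and 0.195 CPM at 3 months, on 2 to 5 reads, and 2.07, 0.303, 3.32 and 3.14 CPM at 21 months, on 6 to 59 reads. The log2 difference was 3.46 (SE 0.66, adjusted p = 0.00561). Even so, the highest of these values was far under the 430 CPM of the lowest efferent ductule library. Under edgeR's own expression filter Foxj1 was removed in this region and so was not tested. Rfx2 went from 9.25, 9.004, 11.9 and 7.74 CPM to 12.8, 16.04, 16.7 and 22.4 CPM, a difference of 0.78 (SE 0.18, adjusted p = 0.0124). Rfx3 passed the test in the other direction (-0.48, SE 0.09, adjusted p = 0.00391) but not the 1.5-fold threshold.

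Some cilium genes were also called higher in the old vas deferens, where 7.78% of all genes were. Of the axoneme genes 7 of 26 were, Dnah11 (1.68), Dnah9 (1.36) and Hydin (0.81) among them, and their sum went from 55.5 to 62.3 CPM up to 77.7 to 109 CPM. Of the multiciliated markers 3 of 11 were called higher, Tmem212, Ccdc153 and Ak7, with Tmem212 at 0 in all young libraries and at 0.112 to 0.394 CPM in the old ones. All 13 T and B cell markers were higher too, with sums of 35.1 to 46.6 CPM at 3 months and 93.1 to 420 CPM at 21 months. Replicate 2 of 21 months was the lowest of its group both for that sum and for Foxj1, and the part of these cells in the Foxj1 value was not tested.

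In the other regions no regulator was called with age. In the caput 0 of 9 were (background 5.71% of all genes), 0 at an unadjusted p with 1.5-fold (13.2%) and 0 by DESeq2. Rfx3 came nearest there, at 10.9, 7.49, 9.37 and 9.75 CPM against 13.3, 16.4, 12.9 and 15.6 CPM, a difference of 0.57 (SE 0.14, adjusted p = 0.0231) under 1.5-fold, which passed 1.5-fold without 21-month replicate 3 (0.64) or 3-month replicate 1 (0.61). In the corpus 0 of 8 tested were called (background 2.03%), with Foxj1 at 1.43 (SE 0.40, adjusted p = 0.0643), which passed under DESeq2 (adjusted p = 0.0292) and at an unadjusted p, as did 6.84% of all genes. In the cauda 0 of 8 tested were called (background 0.128%), 0 at an unadjusted p (8.30%) and 0 by DESeq2. Gmnc was not tested in corpus or cauda, where too few reads were counted.

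**Figure D4:**
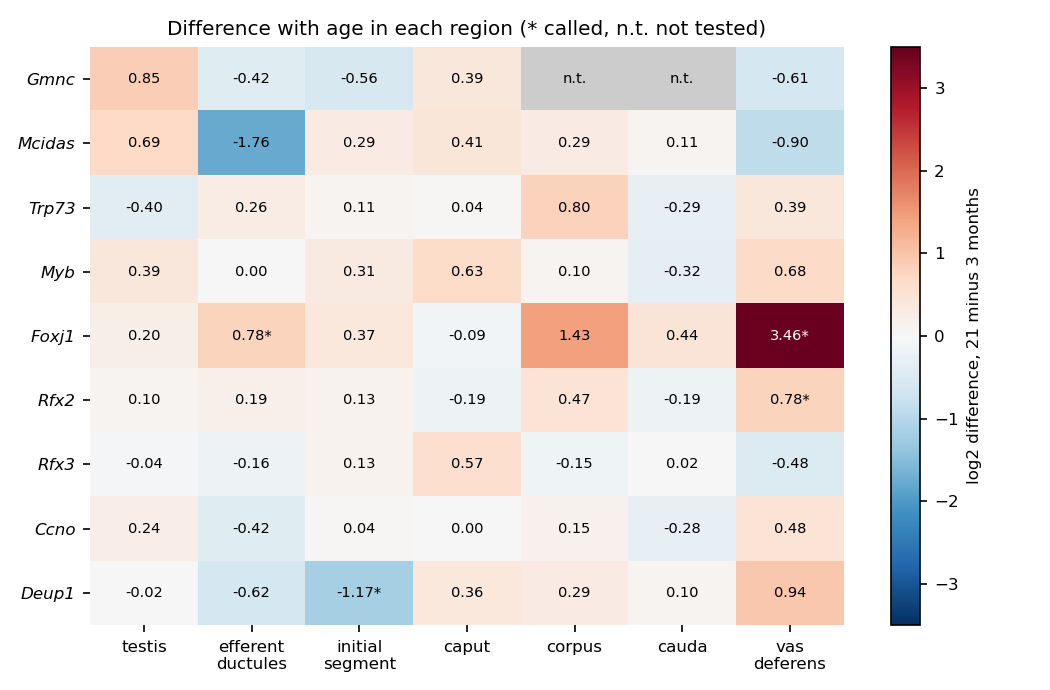
The log2 difference of each regulator with age, 21 minus 3 months, is printed and coloured for each region, red where higher at 21 months and blue where lower, with an asterisk where it was called and n.t. where it was not tested. The 4 called cells are Foxj1 in the efferent ductules (0.78) and vas deferens (3.46), Rfx2 in the vas deferens (0.78) and Deup1 in the initial segment (-1.17). The last was lost in 6 of 8 fits without 1 library and with other scalings, filters or tools. Foxj1 in the efferent ductules was lost with library size alone or with all 56 libraries in 1 fit. In the vas deferens Foxj1 was removed, and so not tested, under edgeR's own expression filter.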

How the data were processed

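Total RNA of each library was converted into stranded TruSeq Total RNA libraries and sequenced as paired reads of 150 bases. Per the labels, the authors used cutadapt, HISAT2 and HTSeq with mm10, and their deposited table holds raw gene counts, whole numbers that were not normalized. Tool versions and the strand setting of the counting are not given in the sources used here.

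From these counts, genes with a total of at least 10 were tested with the quasi-likelihood test of edgeR 4.0.16 (R 4.3.3) after TMM scaling, with Benjamini-Hochberg adjustment over all genes. Regions were compared among the 28 libraries of 1 age (adjusted p under 0.05 and 4-fold), ages within the 8 libraries of a region (adjusted p under 0.05 and 1.5-fold), and the age changes of testis and efferent ductules by an interaction among their 16 libraries (adjusted p under 0.05). DESeq2 1.42.0, other scalings and filters, and fits without single libraries were alternatives. Fits without efferent ductule replicates 1 and 4 of 21 months were added after seeing the data. Gene positions and exon lengths came from GENCODE M21. The tests were checked on simulated counts with a single fixed spread. Changes were simulated only in genes above a floor of reads, so that check does not cover genes with few reads. The 9 regulators and the 12 gene lists were chosen with earlier results of these data known. The genes named are the 9, the 3 of each list that differed most in each direction between testis and efferent ductules at 3 months, and the 3 with the most similar pattern to each regulator. For Gmnc, 1 of these is not reported here. Genes named for a difference with age beyond these were chosen after their values were seen.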

Additional observations from a re-analysis of the deposited data

Results flagged for a closer look

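Of 91 groups of 4 libraries examined for a sample far from the other 3, 4 were marked, where chance marks about 1 in 20 groups. Gmnc in testis at 21 months read 1.83 CPM in replicate 2 and 0.708 to 0.882 CPM in the others. Ccno in the vas deferens at 3 months read 1.53 CPM in replicate 3 and 0.813 to 0.846 CPM in the others. Deup1 in testis at 3 months read 156 CPM in replicate 4, the lowest, and 179 to 181 CPM in the others. Rfx2 in the caput at 3 months read 12.6 CPM in replicate 1 and 8.30 to 8.93 CPM in the others.

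The age change of Gmnc differed between testis and efferent ductules by the interaction test, by 1.36 on the log2 scale (adjusted p = 0.0447, edgeR). The library of 1.83 CPM enters that test, and without it the difference was 0.95 (adjusted p = 0.108).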

How the results depend on the processing

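In the comparison of testis with efferent ductules at 3 months, the counts of 2 and 5 regulators were found in all 8 fits without 1 library. At 21 months the count higher in the efferent ductules ranged from 4 to 5 over such fits and was 4, without Mcidas, under DESeq2's size factors, DESeq2, filterByExpr and the 8 libraries of the 2 organs alone, and the count higher in testis was 1 without efferent ductule replicates 1 and 4. For age in the efferent ductules, the count higher was 0 with library size alone or with all 56 libraries in 1 fit and 2 without replicates 1 and 4. The count lower there was 4 with library size alone, 3 without replicates 1 and 4, 2 at an unadjusted p, and 1 each under DESeq2, filterByExpr and the fit of 56 libraries, and it ranged from 0 to 1 over fits without 1 library. The count lower in the initial segment was 0 under DESeq2's size factors, library size alone, DESeq2, filterByExpr and the replicate block, and from 0 to 1 without 1 library. The count higher was 1 in testis at an unadjusted p, 1 in the caput with 56 libraries (0 to 1 without 1 library), and 1 in the corpus under DESeq2, no filter and an unadjusted p. In the vas deferens it was 1 under filterByExpr, which removed Foxj1 there, and 2 to 3 without 1 library. For the interaction, the count more positive in testis was 0 under DESeq2's size factors, without Gm42418, with the block and with 56 libraries, 3 with library size alone, 2 without replicates 1 and 4, and 0 to 1 without 1 library. The count more negative was 1 under DESeq2 and 2 without replicates 1 and 4. Apart from that removal of Foxj1 by filterByExpr, the cause of these changes was not tested. Same-numbered libraries of testis and efferent ductules did not deviate together (r from -0.0708 to 0.0632), and the labels do not say whether a number marks 1 mouse, so the numbers were not taken to pair the libraries. Beyond the counts given, the block moved no other count of regulators by over 1.5 times. Counts over all genes moved too when 1 library was left out, in the caput to between 181 and 914 higher and between 386 and 1827 lower and in the cauda to between 0 and 52 higher and between 0 and 35 lower. In testis they lay between 25 and 54 higher and between 13 and 32 lower. For the interaction they lay between 175 and 670 more positive in testis, from 457, and between 87 and 477 more negative, from 266. Depth limited Mcidas, Gmnc, Trp73 and Myb in testis, Mcidas in the efferent ductules of 21 months, Deup1 in the initial segment and Foxj1 in the vas deferens, each resting on at most 59 reads a library.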

Other observations

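Cdc20b, the neighbour of Mcidas on chromosome 13, was higher in testis than in the efferent ductules (10.3 and 1.42 CPM at 3 months), while Mcidas was higher in the efferent ductules (0.058 and 1.55 CPM) and Ccno, their neighbour, read 3.34 and 10.3 CPM. In the efferent ductules at 21 months Cdc20b read 0.450 CPM, Mcidas 0.417 CPM and Ccno 7.28 CPM, each lower in the mean than at 3 months. In the main fit only Cdc20b of these passed the test with age (adjusted p = 0.0183 by edgeR, 0.0629 for Mcidas and 0.188 for Ccno). Mcidas passed in other edgeR fits, as with its own expression filter (adjusted p = 0.0451) or all 56 libraries (0.00475). Ccno passed with library size alone (adjusted p = 0.0362).

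Per kilobase, Deup1 at 52.6 CPM and Rfx2 at 48.8 CPM were the highest of the 9 regulators in testis at 3 months, and Myb (0.0660), Trp73 (0.0457) and Mcidas (0.0244) the lowest.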
